A study of Homo sapiens with 15 samples.

Results

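ABCB1, which encodes the drug efflux pump P-glycoprotein, and 9 genes that lie near it on band 7q21 of human chromosome 7 were followed through acute and long-term exposure of a breast cancer cell line to doxorubicin. The other genes were ABCB4, CROT, RUNDC3B, SLC25A40, DBF4, DMTF1, TMEM243, STEAP1 and STEAP2. They were chosen by name and place on the chromosome, with earlier results of these data known. Each was found through the probe sets whose only gene symbol in the platform annotation was its own. All 10 of 10 had at least 1 such probe set, 16 in all, among 19775 genes measured. In 5 genes there was 1 probe set, in 4 there were 2, and CROT had 3. A further probe set that carried a symbol of these genes together with another symbol was left out.

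CAL51 is an established line of triple-negative breast cancer cells. CALDOX was selected from CAL51 during long growth in 0.4 µM doxorubicin, an anthracycline that blocks topoisomerase II and causes DNA breaks. Expression was measured on 15 Affymetrix arrays, 3 independent cultures in each of 5 groups. These were CALDOX exposed for 24 h to 4 µM doxorubicin following 3 drug-free passages, untreated CALDOX, untreated CAL51, and CAL51 exposed to 0.4 µM of the drug for 24 h or for 48 h. Every CALDOX culture therefore carries the history of selection in 0.4 µM drug, and the labels do not say whether the untreated ones were drug-free when harvested. CALDOX is a single selected line, so a difference from CAL51 cannot be told apart from other differences that this line acquired.

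P-glycoprotein uses ATP to move doxorubicin and many other hydrophobic drugs out of the cell. In many cell lines selected with such drugs the ABCB1 gene is amplified or switched on, and genes beside it are often carried along in the same amplified segment or share its activation. A neighbourhood that gains copies tends to show raised transcripts from adjacent genes, so the neighbours of ABCB1 are commonly read together with it.

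The stretches between 2 pairs of head-to-head genes are shown because the genes of each pair are set beside each other in the results. RefSeq (GRCh38.p14) gives the starts of 9 of the 10 genes in 13 windows, with none matched for ABCB4. The non-coding RNA gene TP53TG1 starts on the minus strand 171 bases from the plus-strand start of CROT, and SLC25A40 starts on the minus strand 132 bases from the plus-strand start of DBF4. Both stretches are written on the plus strand, and the third sequence is the 250 bases before the ABCB1 start at position 87600884, on its own minus strand. Capitals mark GC boxes (GGGCGG) and CCAAT boxes (CCAAT) in the first pair of sequences and CCAAT boxes in the third, read on both strands, with no overlap between the marked motifs.
TP53TG1 to CROT, chr7:87345493-87345663: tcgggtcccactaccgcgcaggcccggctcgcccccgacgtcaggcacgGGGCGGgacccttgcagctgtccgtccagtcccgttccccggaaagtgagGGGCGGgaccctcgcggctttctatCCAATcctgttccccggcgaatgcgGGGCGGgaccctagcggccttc
SLC25A40 to DBF4, chr7:87876361-87876492: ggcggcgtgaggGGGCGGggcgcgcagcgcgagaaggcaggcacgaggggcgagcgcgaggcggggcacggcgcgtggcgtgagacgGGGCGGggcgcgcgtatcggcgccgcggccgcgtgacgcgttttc
ABCB1, chr7:87600885-87601134: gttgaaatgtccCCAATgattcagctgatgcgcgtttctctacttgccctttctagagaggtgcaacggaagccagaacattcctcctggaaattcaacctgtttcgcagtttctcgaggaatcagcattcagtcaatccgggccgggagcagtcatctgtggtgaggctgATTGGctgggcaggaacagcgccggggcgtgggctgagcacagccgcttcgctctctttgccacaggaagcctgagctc

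The stretch between TP53TG1 and CROT is 71.3% G and C and holds 3 GC boxes that begin 122, 72 and 22 bases before the CROT start, a spacing of 50 bases each time, with 1 CCAAT box at 47 bases. The stretch between SLC25A40 and DBF4 is 81.1% G and C and holds 2 GC boxes and no CCAAT box. The ABCB1 window has CCAAT boxes at 238 and 79 bases before the start and no GC box in these letters, and the window before the other annotated ABCB1 start, at 87713295, has neither motif. RUNDC3B starts on the plus strand at 87628398, between both ABCB1 starts and opposite in strand to them. Of 35116 windows of 250 bases before RefSeq starts, 42.6% hold a GC box and 32% a CCAAT box. The consensus p53 half-site is in 5.57% of them and in none of the 13 windows of these genes. The CHR element of cell cycle genes (TTTGAA) is in 13.3% of all windows and here only before SLC25A40, and the searched forms of the E2F site, in 2.79%, lie here before DMTF1 and STEAP1.

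The deposited values are log2 intensities. Arrays of a group correlated at 0.9929 to 0.9978 and arrays of different groups at 0.9789 to 0.9958. The epithelial genes KRT8 (11.96 to 13.34), KRT18 (13.55 to 14.56) and EPCAM (11.75 to 12.40) and the mesenchymal gene VIM (10.80 to 13.13) were bright on every array, and KRT19 ranged from 6.46 to 11.83. ESR1 read 8.13 to 8.54, PGR 5.93 to 6.31 and ERBB2 9.87 to 10.16, and 25 genes of unrelated tissues read 4.21 to 8.84. The table holds no detection calls and the probe sets have no common zero, so levels are compared only within a probe set. Fewer transcripts per cell and fewer cells with the transcript cannot be told apart in such cultures.

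ABCB1 and ABCB4 did not pass the test in any comparison, and nor did DMTF1. CROT rose in every comparison of 2 groups, and RUNDC3B fell in 4 of them. STEAP1 and STEAP2 were higher in untreated CALDOX, and SLC25A40 and DBF4 fell in CAL51 by 48 h. TMEM243 had small decreases in untreated CALDOX and from 24 h to 48 h. A gene was called at a limma adjusted p under 0.05 over all 19775 genes. In untreated CALDOX against untreated CAL51, 3 of the 10 genes were higher, where 14.2% of all genes were, and 3 were lower, where 11.7% were. The 2 higher genes that moved at least 2-fold were CROT and STEAP1, and the 1 lower gene was RUNDC3B. The median change of the 10 genes was -0.07, against 0.00 for all genes.

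In treated CALDOX against untreated CALDOX, 1 gene was higher (CROT) and 1 lower (RUNDC3B), where 4.82% and 5.5% of all genes were. In CAL51 at 24 h, 1 was higher and 2 were lower, where 5.77% and 4.34% of all genes were, and at 48 h 1 was higher and 3 were lower, where 10.5% and 11.2% were. From 24 h on to 48 h, 1 was higher and 2 were lower, where 4.37% and 5.34% were. The difference between the 24 h responses of both lines was called for 1 of the 10, CROT, as a smaller response in CALDOX, where 0.855% of all genes were called in that direction. None of the 10 was called with a larger response in CALDOX, where 0.576% of all genes were. The medians of the 10 genes in these comparisons, -0.07 in treated CALDOX, -0.06 at 24 h, -0.07 at 48 h, -0.02 from 24 h to 48 h and -0.02 for the difference, lay within 0.1 of those of all genes (-0.01, -0.03, -0.02, 0.01 and 0.01).

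**Figure D1:**
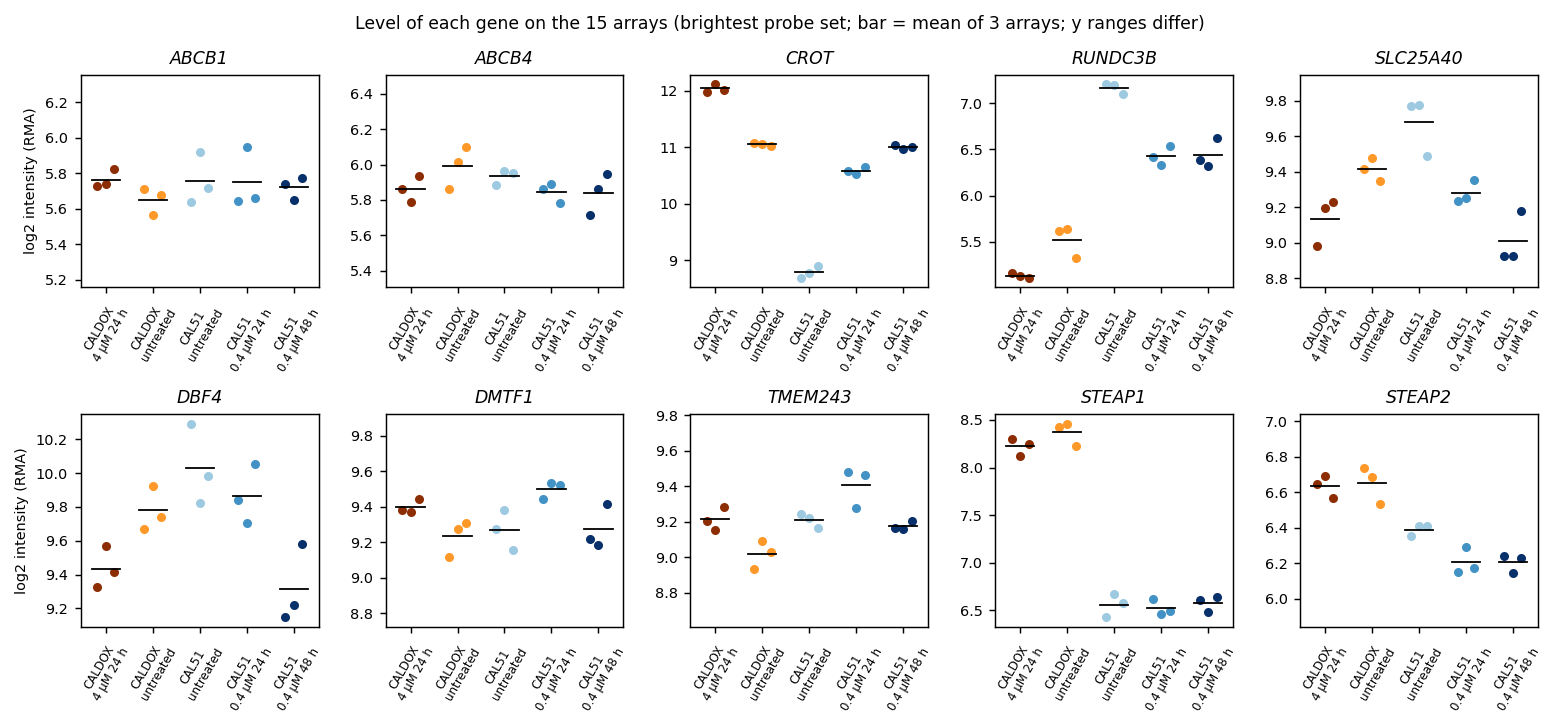
Log2 intensity (vertical axis, range differing by gene but at least 1.2 units) of the brightest probe set of each gene on the 15 arrays, by group along the horizontal axis, with a bar at the mean of 3 arrays. ABCB1 and ABCB4 stay level, CROT is highest in treated CALDOX and lowest in untreated CAL51, RUNDC3B the reverse, and STEAP1 separates the lines.

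The probe sets of both pump genes gave flat readings. ABCB1 read 5.73, 5.74 and 5.83 in treated CALDOX, 5.71, 5.57 and 5.68 in untreated CALDOX and 5.64, 5.92 and 5.72 in untreated CAL51. Doxorubicin-treated CAL51 read 5.64, 5.95 and 5.66 at 24 h and 5.74, 5.65 and 5.77 at 48 h. The 3 arrays of treated CALDOX lay just above those of untreated CALDOX, and all other groups overlapped. The log2 change in untreated CALDOX against untreated CAL51 was -0.11 ± 0.09 (SE, adjusted p = 0.46), and its 95% interval, -0.29 to 0.08, ends at a 1.06-fold increase. Treated against untreated CALDOX gave 0.11 ± 0.09 (adjusted p = 0.544), and CAL51 gave -0.01 ± 0.09 at 24 h (adjusted p = 0.97) and -0.04 ± 0.09 at 48 h (adjusted p = 0.826). The second ABCB1 probe set read 4.56 to 5.03 over all arrays and was not called in any comparison either. Without detection calls it is unknown whether either probe set stood above background, where arrays understate changes.

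ABCB4, whose product exports phosphatidylcholine into bile and is the closest relative of P-glycoprotein, lies directly beside ABCB1. It read 5.86, 5.79 and 5.94 in treated CALDOX, 5.86, 6.02 and 6.10 in untreated CALDOX and 5.89, 5.97 and 5.95 in untreated CAL51. After doxorubicin CAL51 read 5.86, 5.89 and 5.78 at 24 h and 5.72, 5.86 and 5.95 at 48 h. All neighbouring groups in this order of levels overlapped. The change in untreated CALDOX was 0.06 ± 0.07 (adjusted p = 0.671), with a 95% interval of -0.10 to 0.21, and its second probe set gave -0.01 (adjusted p = 0.981). Whether either ABCB4 probe set stood above background is unknown, as for ABCB1, so changes may be understated.

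CROT encodes the peroxisomal carnitine octanoyltransferase, which passes medium-chain acyl groups from coenzyme A to carnitine so that they can leave the peroxisome. Among the 10 genes it had the largest change in each comparison with untreated cells. CROT read 11.98, 12.11 and 12.01 in treated CALDOX, 11.08, 11.06 and 11.02 in untreated CALDOX and 8.69, 8.77 and 8.89 in untreated CAL51. In CAL51 it read 10.57, 10.52 and 10.64 after 24 h and 11.04, 10.97 and 10.99 after 48 h. Untreated CALDOX and CAL51 at 48 h were the only neighbouring groups that overlapped. CROT was 4.81-fold higher in untreated CALDOX than in untreated CAL51 (log2 change 2.27 ± 0.06, adjusted p = 1.99e-13). CAL51 rose 3.47-fold by 24 h (1.79 ± 0.06, adjusted p = 6.57e-11) and 4.65-fold by 48 h (2.22 ± 0.06, adjusted p = 1.5e-12), with a further 0.42 ± 0.06 between both times (adjusted p = 0.000607).

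Treated CALDOX rose above its own raised level, 1.98-fold over untreated CALDOX (0.99 ± 0.06, adjusted p = 1.38e-07). That response was smaller than the 24 h response of CAL51 by 0.81 ± 0.09 on the log2 scale (adjusted p = 0.000247), at 4 µM drug in CALDOX against 0.4 µM in CAL51, so dose and line cannot be told apart. The other CROT probe sets moved the same way in each comparison of 2 groups, by 1.48 and 1.11 in untreated CALDOX and by 0.64 and 1.19 in treated CALDOX. They were called in 4 of the 5, but not between 48 h and 24 h (0.35 each, adjusted p = 0.267 and 0.342). The difference between the lines' responses rested on the brightest probe set: the others gave -0.63 (adjusted p = 0.317) and -0.0031 (adjusted p = 0.999), and the mean over all 3 gave -0.48 (adjusted p = 0.122).

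TP53TG1, a long non-coding RNA named as a p53 target, begins beside CROT on the other strand, across the stretch with the 3 spaced GC boxes. It read 9.83, 9.84 and 9.96 in treated CALDOX, 9.33, 9.43 and 9.54 in untreated CALDOX and 8.17, 8.22 and 7.96 in untreated CAL51. CAL51 read 9.10, 9.01 and 9.21 at 24 h and 9.37, 9.44 and 9.45 at 48 h, so the order of the groups was that of CROT. It rose by 1.32 ± 0.08 in untreated CALDOX (adjusted p = 2.34e-09), 0.44 ± 0.08 in treated CALDOX (adjusted p = 0.00151), 0.99 ± 0.08 at 24 h (adjusted p = 5.62e-07) and 1.31 ± 0.08 at 48 h (adjusted p = 1.24e-08). The response of CALDOX was again the smaller, by 0.55 ± 0.11 (adjusted p = 0.0205). This probe set is of a type that can bind other transcripts, and the 2 further TP53TG1 probe sets gave 1.24 and 1.34 in untreated CALDOX and -0.57 (adjusted p = 0.0528) and -0.38 (adjusted p = 0.108) for the difference in response.

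RUNDC3B encodes a protein with a RUN domain and was lower wherever a comparison with untreated cells showed CROT higher. It read 5.16, 5.13 and 5.11 in treated CALDOX, 5.61, 5.64 and 5.32 in untreated CALDOX and 7.21, 7.20 and 7.10 in untreated CAL51. Doxorubicin-treated CAL51 read 6.42, 6.34 and 6.53 at 24 h and 6.39, 6.32 and 6.62 at 48 h. The 2 CAL51 time points overlapped and the other neighbouring groups did not. RUNDC3B was 3.13-fold lower in untreated CALDOX than in untreated CAL51 (-1.65 ± 0.09, adjusted p = 8.19e-10). It fell in CAL51 by 24 h (-0.74 ± 0.09, adjusted p = 5.52e-05), was at -0.73 ± 0.09 at 48 h (adjusted p = 2.26e-05), and was lower still in treated CALDOX (-0.39 ± 0.09, adjusted p = 0.0101).

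The second RUNDC3B probe set, dimmer, was also lower in untreated CALDOX (-0.97, adjusted p = 2.26e-06), but its other changes were not called: -0.06 at 24 h (adjusted p = 0.807), -0.31 at 48 h (adjusted p = 0.0571) and 0.04 in treated CALDOX (adjusted p = 0.925). The call in treated CALDOX ended with the mean over both probe sets (-0.18, adjusted p = 0.143) and without untreated CALDOX replicate 2 (-0.33, adjusted p = 0.0558). Both probe sets were thus called for the difference between the lines, and only the brightest for the drug responses. As for ABCB1, it is unknown whether either probe set stood above background in CALDOX, where arrays understate changes.

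**Figure D2:**
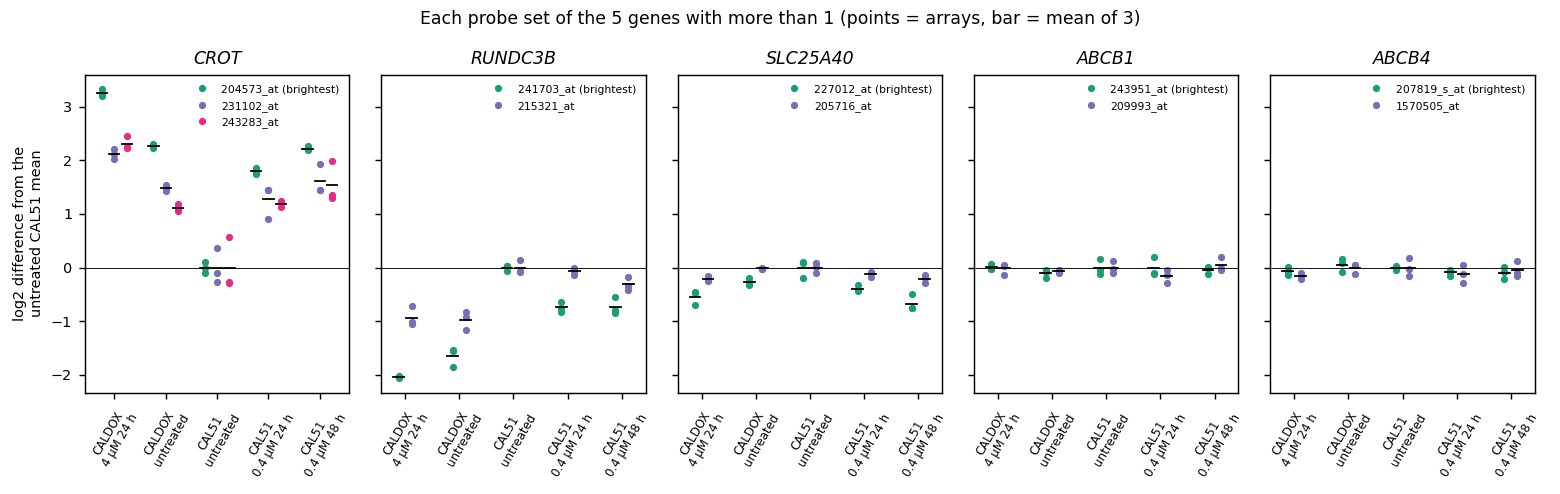
Log2 difference of each array from the untreated CAL51 mean of the same probe set (vertical axis), by group, for the 5 genes with more than 1 probe set. All 3 CROT probe sets are higher, and both RUNDC3B probe sets lower, in CALDOX than in untreated CAL51. The second RUNDC3B and SLC25A40 probe sets move less than the brightest, and ABCB1 and ABCB4 stay near 0.

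SLC25A40 and DBF4, the head-to-head pair, lie beyond RUNDC3B. SLC25A40 is a mitochondrial carrier linked to the import of glutathione. It read 8.98, 9.20 and 9.23 in treated CALDOX, 9.41, 9.48 and 9.35 in untreated CALDOX and 9.77, 9.77 and 9.49 in untreated CAL51. CAL51 read 9.24, 9.25 and 9.35 at 24 h and 8.92, 8.93 and 9.18 at 48 h. The arrays were lower at each time than in untreated CAL51, without overlap. The fall was -0.40 ± 0.09 at 24 h (adjusted p = 0.0114) and -0.67 ± 0.09, or 1.59-fold, at 48 h (adjusted p = 6.48e-05). Untreated CALDOX was lower than untreated CAL51 by a call near the threshold (-0.26 ± 0.09, adjusted p = 0.0465), and treated CALDOX gave -0.28 ± 0.09 (adjusted p = 0.075). The change in treated CALDOX was called in 7 of 15 alternatives, among them the mean over both probe sets (-0.24, adjusted p = 0.025).

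The 24 h call was lost without untreated CAL51 replicate 1 (-0.35, adjusted p = 0.055) or replicate 2 (-0.35, adjusted p = 0.0529). The call in untreated CALDOX was lost without each of the arrays compared except untreated CAL51 replicate 3 (-0.30 to -0.22, adjusted p = 0.0567 to 0.168), and with the mean over both probe sets (-0.14, adjusted p = 0.128). The second SLC25A40 probe set moved less, by -0.21 at 48 h (adjusted p = 0.047), -0.13 at 24 h (adjusted p = 0.325) and -0.02 in untreated CALDOX (adjusted p = 0.925).

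DBF4 is the regulatory subunit of the CDC7 kinase, which phosphorylates the MCM helicase to fire replication origins. It read 9.33, 9.57 and 9.41 in treated CALDOX, 9.67, 9.93 and 9.74 in untreated CALDOX and 10.29, 9.82 and 9.98 in untreated CAL51. CAL51 read 9.84, 9.71 and 10.06 at 24 h and 9.15, 9.22 and 9.58 at 48 h. The 48 h arrays lay below all untreated and 24 h arrays of CAL51. DBF4 fell 1.64-fold by 48 h (-0.71 ± 0.13, adjusted p = 0.000815), and gave -0.16 ± 0.13 at 24 h (adjusted p = 0.524). The change from 24 h to 48 h was -0.55 ± 0.13 (adjusted p = 0.0138), a call lost without CAL51 24 h replicate 3 (-0.46, adjusted p = 0.0642), 48 h replicate 1 (-0.47, adjusted p = 0.0725) or 48 h replicate 2 (-0.50, adjusted p = 0.0625). Untreated CALDOX gave -0.25 ± 0.13 (adjusted p = 0.198) and treated CALDOX -0.34 ± 0.13 (adjusted p = 0.126). The DBF4 change in treated CALDOX was called in 3 of 15 alternatives, and that in untreated CALDOX in 1 of 15. Across the 15 arrays, which hold the group differences, SLC25A40 and DBF4 correlated at 0.851.

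DMTF1 and TMEM243 lie on the CROT side of the cluster. DMTF1 encodes a MYB-like transcription factor that binds D-type cyclins and can activate the ARF gene. It read 9.38, 9.37 and 9.44 in treated CALDOX, 9.12, 9.28 and 9.31 in untreated CALDOX and 9.28, 9.38 and 9.15 in untreated CAL51. In CAL51 it read 9.44, 9.53 and 9.52 at 24 h and 9.22, 9.18 and 9.42 at 48 h. Its 24 h arrays lay above the untreated CAL51 arrays, yet the change, 0.23 ± 0.08, did not pass the test (adjusted p = 0.0747), and at 48 h it was 0.00 ± 0.08. Without untreated CAL51 replicate 2 the 24 h change was 0.28 (adjusted p = 0.0471). Untreated CALDOX gave -0.04 ± 0.08 (adjusted p = 0.804) and treated CALDOX 0.16 ± 0.08 (adjusted p = 0.234).

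TMEM243, which encodes a transmembrane protein, ran beside DMTF1, with a correlation of 0.731 over the 15 arrays, which hold the group differences. It read 9.21, 9.16 and 9.28 in treated CALDOX, 8.94, 9.09 and 9.03 in untreated CALDOX and 9.24, 9.22 and 9.16 in untreated CAL51. CAL51 read 9.48, 9.28 and 9.46 at 24 h and 9.16, 9.16 and 9.21 at 48 h. Untreated CALDOX was lower than untreated CAL51 (-0.19 ± 0.07, adjusted p = 0.0419), and CAL51 was lower at 48 h than at 24 h (-0.23 ± 0.07, adjusted p = 0.0359). The first call was lost without each array compared except untreated CALDOX replicate 2 (-0.21 to -0.15, adjusted p = 0.0535 to 0.168). The second was lost without each except CAL51 24 h replicate 2 (-0.25 to -0.19, adjusted p = 0.0524 to 0.142). The values against the untreated cells of the same line, 0.19 ± 0.07 in treated CALDOX (adjusted p = 0.077) and 0.20 ± 0.07 in CAL51 at 24 h (adjusted p = 0.0733), did not pass. Without CAL51 24 h replicate 2 that last change was 0.26 (adjusted p = 0.016). The TMEM243 change in treated CALDOX was called in 5 of 15 alternatives, and that in CAL51 at 24 h in 6 of 15.

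STEAP1 and STEAP2 stand farther along the band and encode membrane proteins of a family of metalloreductases that reduce iron and copper. STEAP1 is known as a surface antigen of prostate cancer. It read 8.30, 8.12 and 8.25 in treated CALDOX, 8.43, 8.46 and 8.23 in untreated CALDOX and 6.43, 6.67 and 6.58 in untreated CAL51. Doxorubicin-treated CAL51 read 6.61, 6.46 and 6.49 at 24 h and 6.60, 6.49 and 6.64 at 48 h. The 6 CALDOX arrays lay above the 9 CAL51 arrays, and within each line the groups overlapped. STEAP1 was 3.52-fold higher in untreated CALDOX than in untreated CAL51 (1.81 ± 0.08, adjusted p = 7.41e-11). As for ABCB1, it is unknown whether this probe set stood above background in CAL51, and if it did not the fold is understated. Its changes under drug were -0.15 ± 0.08 in treated CALDOX (adjusted p = 0.325), -0.04 ± 0.08 at 24 h (adjusted p = 0.844) and 0.02 ± 0.08 at 48 h (adjusted p = 0.916).

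STEAP2 showed the same split on a smaller scale. It read 6.65, 6.69 and 6.57 in treated CALDOX, 6.74, 6.69 and 6.53 in untreated CALDOX and 6.35, 6.41 and 6.41 in untreated CAL51. CAL51 read 6.15, 6.29 and 6.18 at 24 h and 6.24, 6.15 and 6.23 at 48 h. STEAP2 was 1.2-fold higher in untreated CALDOX (0.26 ± 0.07, adjusted p = 0.00586). The treated CAL51 arrays lay below the untreated ones at both times, but the changes, -0.18 ± 0.07 at 24 h (adjusted p = 0.0952) and -0.18 ± 0.07 at 48 h (adjusted p = 0.057), did not pass. Without CAL51 24 h replicate 2 the 24 h change was -0.23 (adjusted p = 0.0477). Whether the STEAP2 probe set stood above background is unknown, as for STEAP1 in CAL51. STEAP1 and STEAP2 correlated at 0.908 over the 15 arrays, which hold the group differences.

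**Figure D3:**
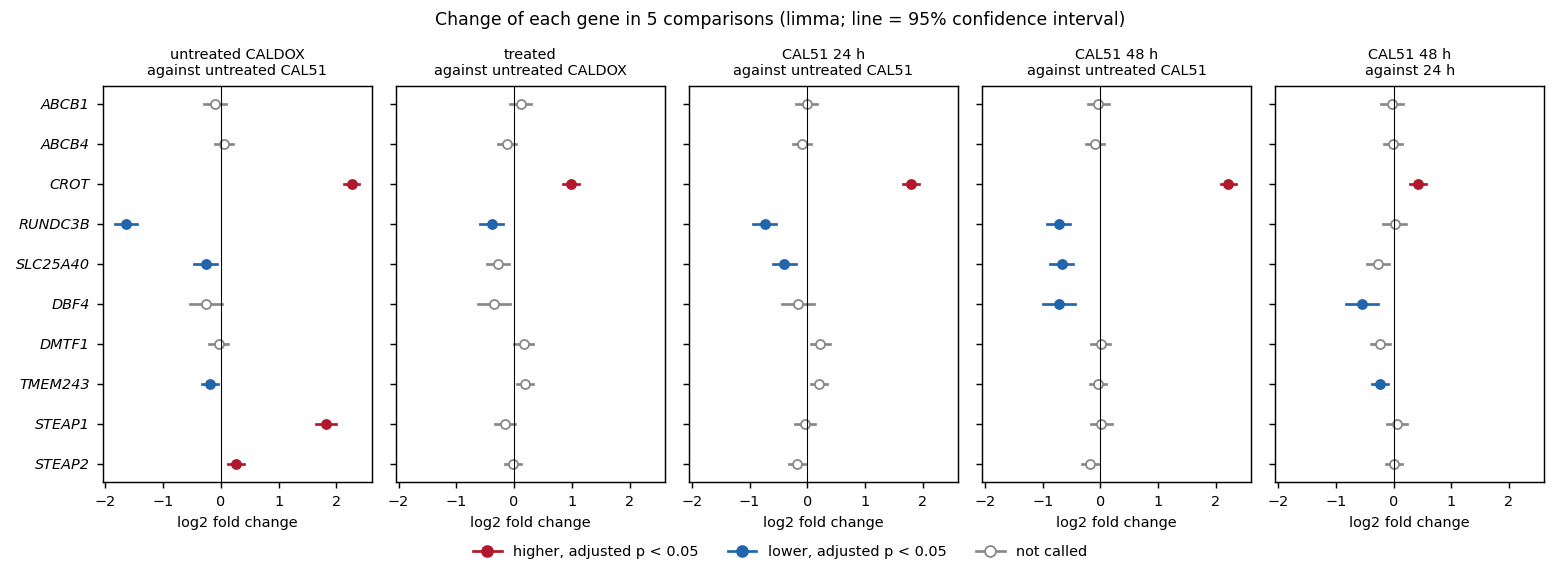
Log2 fold change of each gene (horizontal axis) in 5 comparisons, with the 95% confidence interval as a line and filled points for calls at an adjusted p under 0.05. The interval of CROT lies right of 0 in every panel, that of RUNDC3B left of 0 in 4 and that of STEAP1 right of 0 only for untreated CALDOX against untreated CAL51, and the intervals of ABCB1 and ABCB4 span 0 throughout.

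Along the chromosome the called genes did not form 1 block. In the RefSeq order the genes run DMTF1, TMEM243, TP53TG1, CROT, ABCB4, ABCB1, RUNDC3B, SLC25A40 and DBF4, and STEAP1 and STEAP2 follow after ADAM22, SRI, STEAP4 and ZNF804B. In untreated CALDOX the raised pair TP53TG1 and CROT was followed by ABCB4 at 0.06 and ABCB1 at -0.11, neither called, and then by RUNDC3B at -1.65. Whether the ABCB4 and ABCB1 probe sets stood above background is unknown, so a change of these genes may have been missed. ADAM22 (0.17), SRI (-0.11), STEAP4 (-0.15) and ZNF804B (-0.11), between DBF4 and STEAP1, were not called, and CFAP69, beyond STEAP2, gave 0.20 (adjusted p = 0.0771).

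Of 30 further 7q21 genes, 26 were tested, and the others were not analysed here. In untreated CALDOX 2 of the 26 were higher and 3 lower, where 14.2% and 11.7% of all genes were, with a median of -0.05. They were TP53TG1 and RBM48 (0.41 ± 0.13, adjusted p = 0.0254), and AKAP9 (-0.70 ± 0.08, adjusted p = 7.69e-06), ELAPOR2 (-0.26 ± 0.09, adjusted p = 0.036) and FZD1 (-0.22, adjusted p = 0.0227, named after its value was seen). FZD1 is a Wnt receptor and AKAP9 a centrosomal anchor of protein kinase A. In treated CALDOX 1 was higher, TP53TG1, and 0 lower, where 4.82% and 5.5% of all genes were. In CAL51 TP53TG1 was the 1 higher gene at both times and FZD1 the 1 lower, by -0.30 ± 0.07 at 24 h (adjusted p = 0.00942) and -0.40 ± 0.07 at 48 h (adjusted p = 0.000378). Of all genes 5.77% were higher and 4.34% lower at 24 h, and 10.5% and 11.2% at 48 h. From 24 h to 48 h TP53TG1 and SEMA3D (0.26 ± 0.08, adjusted p = 0.0409) were higher, where 4.37% of all genes were.

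**Figure D4:**
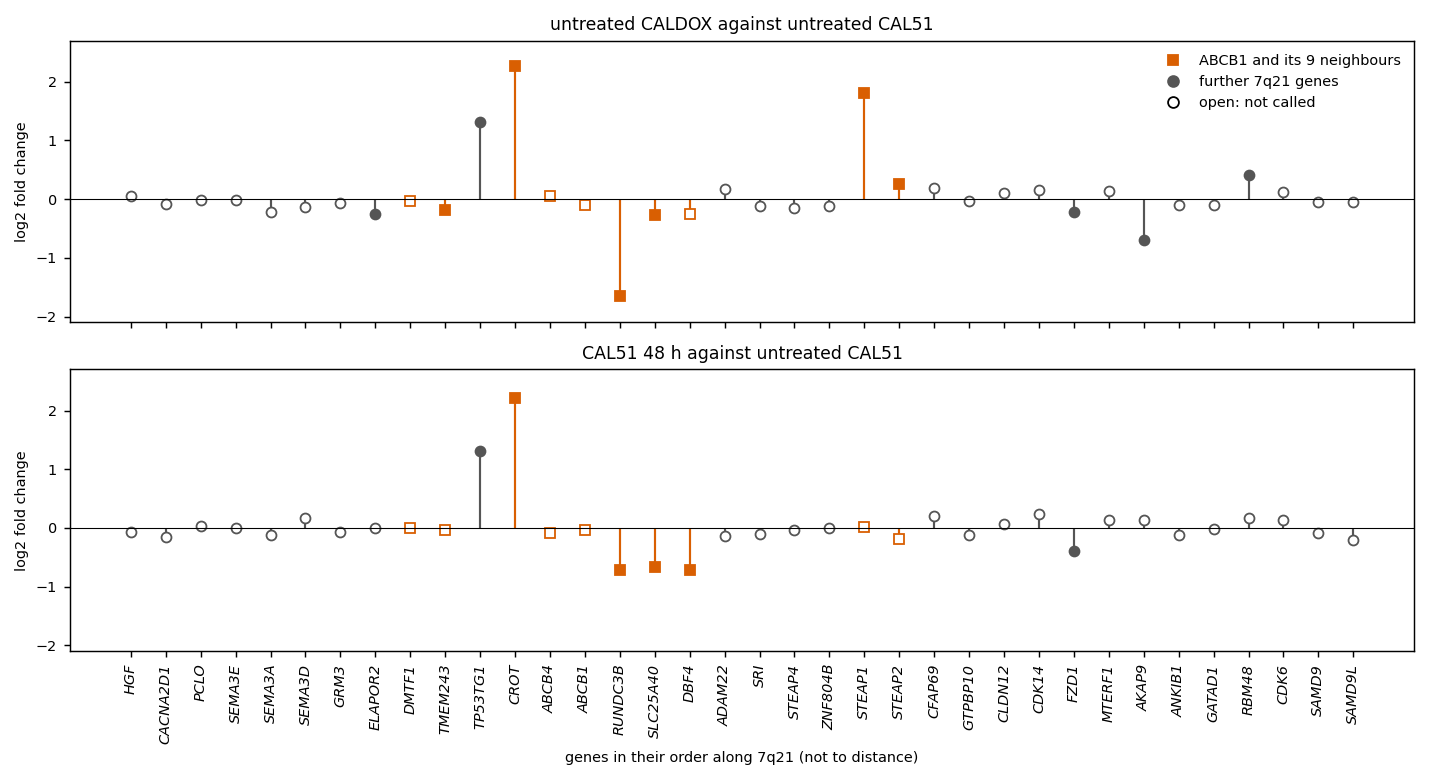
Log2 fold change (vertical axis) of the 36 measured genes in their order along 7q21 (horizontal axis, not to distance), in untreated CALDOX against untreated CAL51 above and in CAL51 at 48 h against untreated CAL51 below. Squares are ABCB1 and its 9 neighbours, circles further genes, and open points were not called. The raised pair TP53TG1 and CROT stands beside ABCB4 and ABCB1 near 0 and RUNDC3B below 0. Whether the ABCB4 and ABCB1 probe sets stood above background is unknown.

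Other genes of drug efflux were called in CALDOX. Of 10 listed genes of that kind 8 were tested. In untreated CALDOX 2 were higher and 0 lower, where 14.2% and 11.7% of all genes were. ABCC1, the multidrug resistance protein that exports doxorubicin and glutathione conjugates, was 3.37-fold higher (1.75 ± 0.06, adjusted p = 1.97e-12), and MVP, the major vault protein, 3.19-fold (1.67 ± 0.09, adjusted p = 7.9e-10). In treated CALDOX MVP rose further (0.51 ± 0.09, adjusted p = 0.00157) and ABCG2, another pump of anthracyclines, fell (-0.45 ± 0.09, adjusted p = 0.00463). In CAL51 3 were higher and 1 lower at 24 h, where 5.77% and 4.34% of all genes were. At 48 h 5 were higher and 0 lower, where 10.5% and 11.2% were. Among those 5 were MVP (0.91 ± 0.09, adjusted p = 2.51e-06), ABCG2 (0.54 ± 0.09, adjusted p = 0.000477) and ABCC1 (0.31 ± 0.06, adjusted p = 0.00102). The 24 h ABCG2 response of CALDOX to 4 µM drug lay below that of CAL51 to 0.4 µM by 0.88 ± 0.13 (adjusted p = 0.00233).

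Factors known to act at the ABCB1 promoter were tested for 16 of 18 listed genes. In untreated CALDOX 3 were higher and 4 lower, where 14.2% and 11.7% of all genes were. KAT2B, a histone acetyltransferase, was higher by 1.52 ± 0.14 (adjusted p = 5.12e-07) and EGR1, an early growth response factor, by 0.89 ± 0.07 (adjusted p = 3.51e-08). WT1, a zinc finger factor, was lower (-1.32 ± 0.16, adjusted p = 1.01e-05), as was NFYB, a subunit of the factor that binds CCAAT boxes such as those marked above (-0.47 ± 0.07, adjusted p = 0.000141). In treated CALDOX 0 were higher and 7 lower, where 4.82% and 5.5% of all genes were. The 7 were led by DNMT1 (-0.37 ± 0.11, adjusted p = 0.0431) and the deacetylases HDAC2 (-0.32 ± 0.06, adjusted p = 0.00313) and HDAC1 (-0.31 ± 0.06, adjusted p = 0.00177). In CAL51 2 were higher and 3 lower at 24 h, where 5.77% and 4.34% of all genes were. At 48 h 2 were higher and 5 lower, where 10.5% and 11.2% were. EGR1 rose by 1.00 ± 0.07 at 48 h (adjusted p = 3.53e-08) and SP3, a GC box factor, fell (-0.49 ± 0.07, adjusted p = 9.75e-05).

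Genes that work beside CROT in carnitine transfer and peroxisomal oxidation had smaller changes than CROT. Of 20 listed genes 16 were tested. In untreated CALDOX 3 were higher and 0 lower, where 14.2% and 11.7% of all genes were. The 3 were SLC22A5, the plasma membrane carnitine carrier (1.16 ± 0.06, adjusted p = 2.82e-10), SLC25A20, the mitochondrial acylcarnitine carrier (0.43 ± 0.08, adjusted p = 0.000366), and CPT2 (0.20 ± 0.06, adjusted p = 0.027). Treated CALDOX raised SLC22A5 further (0.42 ± 0.06, adjusted p = 0.000184) and lowered ECI2, an enoyl-CoA isomerase (-0.31 ± 0.06, adjusted p = 0.00243). In CAL51 2 were higher and 0 lower at 24 h, where 5.77% and 4.34% of all genes were. At 48 h 7 were higher and 1 lower, where 10.5% and 11.2% were. SLC22A5 stood at 0.44 ± 0.06 at 48 h (adjusted p = 4.76e-05) and ACOX2, a peroxisomal oxidase, at 0.32 ± 0.08 (adjusted p = 0.0072).

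All 22 listed partners of DBF4 in origin firing were tested. By 48 h in CAL51 21 fell and 0 rose, where 11.2% and 10.5% of all genes did. Their median was -0.67 against -0.02 for all genes. The change of DBF4 itself was -0.71. MCM10 (-0.82 ± 0.09, adjusted p = 6.52e-06), MCM7 (-0.79 ± 0.05, adjusted p = 2.27e-08) and MCM5 (-0.78 ± 0.07, adjusted p = 1.04e-06) fell most. At 24 h 9 fell and 0 rose, where 4.34% and 5.77% of all genes did. CDC7, the kinase that DBF4 activates, was among the 9 (-0.39 ± 0.08, adjusted p = 0.00337). In treated CALDOX 15 fell and 0 rose, where 5.5% and 4.82% of all genes did. The median was -0.35, beside the uncalled DBF4 value of -0.34. In untreated CALDOX 1 was higher and 6 lower, where 14.2% and 11.7% of all genes were. CDC45 (-0.47 ± 0.08, adjusted p = 0.000219) and CDC6 (-0.46 ± 0.09, adjusted p = 0.00116) were lowest.

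Genes of glutathione synthesis and of mitochondrial glutathione were listed beside SLC25A40, and all 11 were tested. In CAL51 1 was higher and 5 lower at 48 h, where 10.5% and 11.2% of all genes were. GLRX2, a mitochondrial glutaredoxin, stood at -0.40 ± 0.05 (adjusted p = 3.04e-05) and GSS, glutathione synthetase, at 0.32 ± 0.06 (adjusted p = 0.000663). At 24 h 1 was higher and 1 lower, where 5.77% and 4.34% of all genes were. In untreated CALDOX 3 were higher and 2 lower, where 14.2% and 11.7% of all genes were. GCLC, a subunit of the rate-limiting enzyme of glutathione synthesis, gave 0.48 ± 0.07 (adjusted p = 6.6e-05), GLRX2 -0.46 ± 0.05 (adjusted p = 3.68e-06) and the carrier SLC25A11 -0.36 ± 0.06 (adjusted p = 9.46e-05). In treated CALDOX 1 was higher and 1 lower, where 4.82% and 5.5% of all genes were.

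Of 9 listed genes around DMTF1 8 were tested, and CDKN1A, the gene of the cell cycle inhibitor p21, led the list in each comparison of treated with untreated cells. It rose by 1.11 ± 0.07 in treated CALDOX (adjusted p = 1.26e-07), by 1.98 ± 0.07 in CAL51 at 24 h (adjusted p = 6.57e-11) and by 2.54 ± 0.07 at 48 h (adjusted p = 1.46e-12). MDM2, the ubiquitin ligase of p53, rose by 0.64 ± 0.09 in treated CALDOX (adjusted p = 0.000306) and by 1.26 ± 0.09 at 24 h (adjusted p = 2.8e-07). In all, 4 were higher and 0 lower in treated CALDOX, 4 and 0 at 24 h and 5 and 0 at 48 h. Of all genes 4.82% were higher and 5.5% lower in treated CALDOX, 5.77% and 4.34% at 24 h, and 10.5% and 11.2% at 48 h. In untreated CALDOX 1 was higher, CDKN1A (1.35 ± 0.07, adjusted p = 3.65e-10), and 1 lower, CCND2 (-0.54 ± 0.12, adjusted p = 0.00277), where 14.2% and 11.7% of all genes were. The drug responses of CDKN1A and MDM2 were, like that of CROT, smaller in CALDOX, by 0.87 ± 0.10 (adjusted p = 0.000267) and 0.62 ± 0.13 (adjusted p = 0.0282).

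Among 11 tested of 13 listed genes of the STEAP family and iron handling, 3 were higher and 1 lower in untreated CALDOX. Of all genes 14.2% were higher and 11.7% lower. NCOA4, the receptor that takes ferritin to the lysosome (0.52 ± 0.08, adjusted p = 0.000155), and TFRC, the transferrin receptor (0.28 ± 0.10, adjusted p = 0.0484), were higher, and HMOX1, haem oxygenase (-0.41 ± 0.09, adjusted p = 0.00301), was lower. STEAP3, the endosomal ferric reductase, gave 0.00 between the untreated lines and rose under drug, by 0.41 ± 0.06 in treated CALDOX (adjusted p = 0.000149), 0.23 ± 0.06 at 24 h (adjusted p = 0.0152) and 0.26 ± 0.06 at 48 h (adjusted p = 0.00246). It was the 1 gene called in treated CALDOX and at 24 h, and at 48 h NCOA4 was called as well. Of all genes 4.82% were higher in treated CALDOX, 5.77% at 24 h and 10.5% at 48 h.

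For each gene whose group means spanned at least 0.5, the 5 genes with the highest Pearson correlation over the 15 arrays are given as a description, since the arrays share the group differences. DRAM1, a lysosomal autophagy regulator, was nearest to CROT at 0.991, followed by CST3, TIMP1, TPP1 and the adjacent TP53TG1 at 0.985. RUNDC3B was nearest to FERMT2 (0.986), PPP1R18, ZNF423, FKBP5 and AIF1L. SLC25A40 was nearest to ZDHHC6 (0.964), BRCA1 (0.961), VPS45, AGPAT5 and VPS26B. DBF4 was nearest to the mitotic genes KIF14 (0.970), KIF20B and ECT2, then HAUS6 and CEP350 (0.947). STEAP1 was nearest to AKAP19 (0.996), CRYM, PHLDB2, MSRB1 and CCDC50 (0.993). CROT and RUNDC3B correlated at -0.889, whereas ABCB1 and ABCB4 correlated at -0.001.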

How the data were processed

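The deposited log2 values of 54675 Affymetrix probe sets were made by the authors with RMA (background correction, quantile normalization and summary by probe set), per the submitters' processing notes. Which version of RMA was used is not given in the sources here, and the log base was taken as 2 from the range of 3.083 to 14.762. Control probe sets (62) were left out, genes were named from the platform annotation, and the brightest single-symbol probe set by the mean over 15 arrays stood for each of 19775 genes. Group means were estimated together over all arrays (limma 3.58.1, functions lmFit and eBayes, R 4.3.3), with 10 residual and 5.397 prior degrees of freedom, 6 two-sided contrasts and Benjamini-Hochberg adjustment over all genes. A second fit over all probe sets gave the values of further probe sets. An error after ± is the limma standard error, with 3 arrays in each group, whose number limits the precision. The script was tested on simulated data.

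Whether replicate numbers pair the cultures could not be settled. Deviations of same-numbered arrays correlated at -0.462 to 0.458, and 8 of 30 pairs exceeded 0.1. Those of different-numbered arrays correlated at -0.457 to 0.469, and 17 of 60 exceeded 0.1. Within CAL51, same-numbered 24 h and 48 h arrays gave 0.060, 0.397 and 0.458. Untreated arrays gave 0.226, 0.375 and -0.128 with those of 24 h, and -0.166, 0.191 and -0.292 with those of 48 h. Untreated and treated CALDOX gave 0.162, 0.142 and 0.030. The labels give no scan date or slide. From each of 8 gene lists the up to 4 called genes with the largest change in a contrast were eligible to be named. The genes that fill the gap between DBF4 and STEAP1, and CFAP69, were named after their values were seen. The 10 genes and the lists were chosen with earlier results of these data known. Alternatives were another choice of probe set, a filter on dim probe sets, only the arrays compared, array weights, repeated quantile normalization, a trended robust prior, the replicate number as a block, each array left out and, added after seeing the data, the spread of each array as a covariate.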

Additional observations from a re-analysis of the deposited data

Results flagged for a closer look

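CROT stood out because its response to drug differed between the lines by a direct test: the 24 h response of CALDOX minus that of CAL51 was -0.81 on the log2 scale (adjusted p = 0.000247). All 3 arrays of treated CALDOX and all 3 of CAL51 at 24 h lay above the untreated arrays of their own line, by 0.99 in CALDOX and 1.79 in CAL51 on average. With the mean over the 3 CROT probe sets the difference was -0.48 and did not pass (adjusted p = 0.122). The doses differed between the lines, 4 µM in CALDOX and 0.4 µM in CAL51, and the part of the dose was not tested.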

How the results depend on the processing

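Of 19 called results of single genes 12 kept their call under every alternative, 7 lost it in some and 0 changed direction. Of 41 uncalled results 12 were called in some alternatives and 14 changed sign in some. The number of the 10 genes called was 3 at 24 h in CAL51 (6 with array weights, 5 with the trended robust prior, 2 to 5 with an array left out). From 24 h to 48 h it was 3 (5 with the filter on dim probe sets, which left 5 of the genes, 1 with only the arrays compared, 5 with the trended robust prior and 5 with the array spread as a covariate, 1 to 4 with an array left out). At 48 h it was 4 (4 with each array left out). It was 6 in untreated CALDOX (3 with the dim filter, 4 to 5 with an array left out), 2 in treated CALDOX (4 with only the arrays compared, 6 with array weights, 4 with repeated quantile normalization, 4 with the trended robust prior, 5 with the covariate, 1 to 2 with an array left out) and 1 for the difference in response (0 with the mean of a gene's probe sets, 2 with array weights, 1 with each array left out). In untreated CALDOX the calls of SLC25A40 (adjusted p = 0.0628) and TMEM243 (0.069) were lost in the fit over all probe sets. TMEM243 also lost its call there with only the arrays compared (0.0724), and SLC25A40 with the mean of its probe sets (0.128). The dim filter left out ABCB1, ABCB4, RUNDC3B, STEAP1 and STEAP2, whose changes may be understated. At 48 h that filter thus took away the RUNDC3B call. In the same comparison STEAP2 was called as well with the mean of a gene's probe sets (adjusted p = 0.0407) and with the covariate (adjusted p = 0.0422). The extreme counts came at 24 h without CAL51 24 h replicate 2 (5), from 24 h to 48 h without CAL51 24 h replicate 3, 48 h replicate 1 or 48 h replicate 2 (1 each), and in treated CALDOX without untreated CALDOX replicate 2 (1).

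With the replicate number as a block, a pairing that could not be settled, the counts were 3 at 24 h, 4 at 48 h, 2 from 24 h to 48 h, 4 in untreated CALDOX, 2 in treated CALDOX and 1 for the difference. It ended the calls of SLC25A40 (adjusted p = 0.0613) and TMEM243 (0.0577) in untreated CALDOX and of TMEM243 from 24 h to 48 h (0.0523), and 57 of 60 results kept their side of the threshold.

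All sign changes were in uncalled values. At 24 h ABCB1 gave 0.0011 with repeated quantile normalization, 0.014 with the covariate and -0.11 to 0.071 with an array left out, and STEAP1 gave 0.027 with array weights and -0.10 to 0.018. At 48 h ABCB1 gave 0.0045 with the mean of its probe sets and -0.097 to 0.043, DMTF1 -0.0069 with the covariate and -0.071 to 0.056, and STEAP1 -0.048 to 0.074. From 24 h to 48 h ABCB1 gave 0.086 with the mean of its probe sets, 0.046 with array weights and -0.082 to 0.070, ABCB4 0.034 with the mean and -0.057 to 0.058, RUNDC3B -0.12 with the mean, -0.00075 with array weights and -0.074 to 0.076, STEAP1 -0.014 with array weights, and STEAP2 0.035 with array weights and -0.029 to 0.043. DMTF1 in untreated CALDOX gave 0.037 with array weights and -0.095 to 0.022, and STEAP2 in treated CALDOX 0.045 with array weights and -0.078 to 0.024. For the difference in response TMEM243 gave 0.041 with repeated quantile normalization, 0.035 with the covariate and -0.066 to 0.035, and ABCB4 -0.11 to 0.014. The cause was not tested in any of these.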
